A study of Mus musculus with 4 samples.

Results

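Mitosis and G2/M genes were followed in mouse embryonic fibroblasts that lack p19ARF, with NSD2 added or with a control vector. The members were 35 genes chosen by name, and every bead array probe whose platform annotation carries one of these symbols was taken. Of the 35, 29 were matched, with 43 probes, out of 16593 genes and 25697 probes on the array. Ccnb1, Cenpf, Aurkb, Tacc3, Racgap1 and Mki67 had no matching named probe and were not analysed here.

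Total RNA was hybridised to Illumina mouse bead arrays, 2 for cells stably transduced with a control vector and 2 for cells transduced with wild-type NSD2, a methyltransferase that makes the histone mark H3K36me2. Both groups were p19ARF-/- embryonic fibroblasts grown in DMEM with fetal bovine serum and given no treatment. p19ARF, encoded at the Cdkn2a locus, inhibits MDM2, so that p53 is less readily stabilised in its absence, in control and NSD2 cells alike. The labels name neither the vector's promoter nor whether a line was a clone or a pool, and nothing in them says that the 2 replicates came from separate cultures, so p-values measure only the spread between these arrays, which may be technical. The submitters' design mentions triplicates, whereas the arrays analysed here number 2 per group. The labels also give entries for tissue (blood), age and sex, which do not describe cultured embryonic fibroblasts and were not used.

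Cells entering mitosis activate the kinase CDK1 with cyclins A and B. They assemble a bipolar spindle and hold anaphase back through the spindle checkpoint until every kinetochore is attached. The ubiquitin ligase APC/C then destroys cyclins and other mitotic proteins, and the cell divides at the central spindle. Transcripts of most of these proteins accumulate in G2 and M phase and are low in resting cells, and for this reason they are widely used to gauge proliferation. In bulk RNA, fewer cells in G2 and M phase and less of a transcript per cell cannot be told apart. A mitotic gene promoter typically carries CCAAT boxes, which bind the factor NF-Y, and a cell cycle homology region (CHR), which binds the MuvB core of the DREAM repressor and of the B-MYB and FOXM1 activator complexes.

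Promoter windows from RefSeq (build GRCm38.p6) were at hand for 24 of the 29 measured members. Each runs from 250 bases before to 50 bases after the most upstream annotated start. The letters TTTGAA, the canonical CHR, and CCAAT were searched on both strands, overlapping matches included, and a match of one may share letters with a match of the other. TTTGAA was found in 18 of the 24 windows (75%) and in 18.2% of the windows of 27025 genes. CCAAT was found in 21 (87.5%) and in 38.0% of all genes' windows. Both stood in 17 windows (70.8%), against 7.16% of all genes, and at least 2 CCAAT matches stood in 14 (58.3%), against 12.1%. Matches of TTTGAA also lay near the start, since 17 of 22 began within 50 bases of it (77.3%), against 24.8% of the matches in all windows. For CCAAT these shares were 38.5% and 28.3%. Counted by gene, a CCAAT match began within 50 bases of the start in 17 of 24 members (70.8%), against 13.9% of all genes. For TTTGAA the shares by gene were 70.8% and 4.95%. The rule for membership used symbols alone, but the genes were picked as known mitotic genes, so these shares describe a familiar class of promoter. A match is no measured binding site. The windows of Birc5 and Nusap1 held neither motif.

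**Figure D1:**
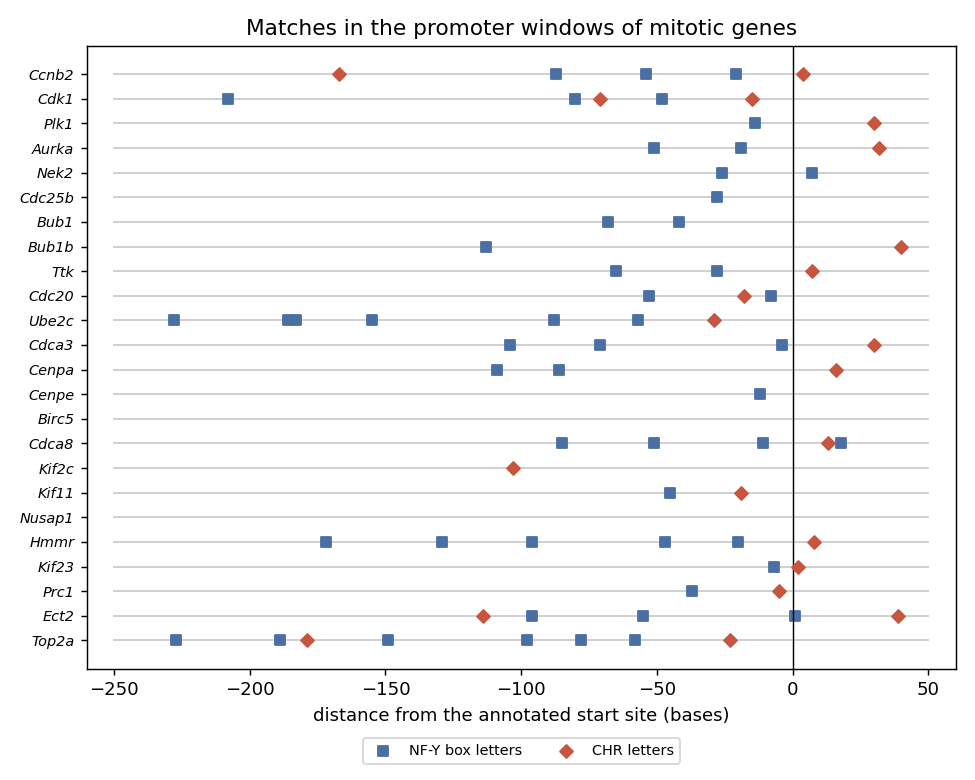
Positions of CHR letters (red diamonds) and NF-Y box letters (blue squares) in the promoter windows of 24 mitotic genes, against the distance in bases from the annotated start. CHR matches gather near the start in most windows, and 2 windows hold neither motif. NF-Y boxes lie mainly upstream, as do 250 of the 300 bases of each window.

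The upstream 250 bases of 5 members are printed because they hold both motifs within the printed stretch, were measured on every array and overlap no other annotated gene. They are chr10:69352913-69353162 (minus strand) for Cdk1, chr4:118437344-118437593 (minus strand) for Cdc20, chr2:164769679-164769928 (plus strand) for Ube2c, chr19:37376132-37376381 (plus strand) for Kif11 and chr11:99024190-99024439 (minus strand) for Top2a. Each reads 5′ to 3′ on the gene's strand and ends 1 base before the start, and capitals mark the 2 motifs and their reverse complements.

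Cdk1: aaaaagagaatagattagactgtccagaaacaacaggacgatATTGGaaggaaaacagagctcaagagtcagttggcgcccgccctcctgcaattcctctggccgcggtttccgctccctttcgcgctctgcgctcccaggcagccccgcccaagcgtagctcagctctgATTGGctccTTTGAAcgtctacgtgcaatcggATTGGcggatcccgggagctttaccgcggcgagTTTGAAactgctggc
Cdc20: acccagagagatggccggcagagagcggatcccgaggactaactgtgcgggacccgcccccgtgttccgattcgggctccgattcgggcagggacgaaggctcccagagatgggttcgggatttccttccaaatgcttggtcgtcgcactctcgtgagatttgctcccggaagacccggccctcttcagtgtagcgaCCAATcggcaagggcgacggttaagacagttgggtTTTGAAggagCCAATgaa
Ube2c: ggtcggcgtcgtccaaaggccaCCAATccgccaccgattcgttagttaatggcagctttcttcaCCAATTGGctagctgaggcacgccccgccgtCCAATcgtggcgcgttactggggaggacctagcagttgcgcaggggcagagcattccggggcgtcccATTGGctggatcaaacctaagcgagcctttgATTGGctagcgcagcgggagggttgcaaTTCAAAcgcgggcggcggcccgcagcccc
Kif11: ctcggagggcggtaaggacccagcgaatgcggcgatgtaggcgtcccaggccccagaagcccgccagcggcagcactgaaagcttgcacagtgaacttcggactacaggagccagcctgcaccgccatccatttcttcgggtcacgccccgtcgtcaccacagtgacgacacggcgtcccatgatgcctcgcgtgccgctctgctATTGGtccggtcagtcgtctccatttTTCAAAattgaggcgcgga
Top2a: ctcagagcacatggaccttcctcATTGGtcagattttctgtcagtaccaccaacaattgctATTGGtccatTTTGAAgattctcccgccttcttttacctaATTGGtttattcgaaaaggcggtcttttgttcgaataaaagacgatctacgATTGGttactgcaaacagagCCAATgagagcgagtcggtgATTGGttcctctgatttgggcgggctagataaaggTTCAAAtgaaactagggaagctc

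In Cdk1, a CCAAT letter run on the opposite strand starts 48 bases before the start site and TTTGAA 15 bases before it. In Cdc20, CCAAT starts 53 and 8 bases upstream, with TTTGAA between them at 18 bases. Ube2c and Top2a each hold 6 CCAAT matches in the printed stretch.

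The probe used for a gene was the one with the highest mean, and a probe was counted as above background on an array when its signal exceeded a level set from the dim side of that array's distribution. Of the 29 measured members, 21 were above background on all 4 arrays and Cdc25b on 2 arrays, 1 of each group. The other 7, Ccnb2, Nek2, Bub1, Cenpe, Hmmr, Kif20a and Ect2, were above it on 0 arrays. These 7 probes give no level and no fold here, and a dim probe does not show that the gene is silent. Of the arrays' probes, 42.6% to 47.6% were above background. The median signal was 164 to 204, and the 75th percentile was 357 and 345 on the arrays numbered 1 against 490 and 491 on those numbered 2. Of 11 measured fibroblast markers 8 were above background on all 4 arrays, among them Col1a1, Col1a2, Pdgfra and Vim, against 0 of 16 blood cell markers and 0 of 6 endothelial markers. Of 6 epithelial markers 4 were, the keratin genes Krt8, Krt14, Krt18 and Krt19, while Cdh1 was above background on 3 arrays. Of the fibroblast markers, Fap and Lum were above background on 0 arrays and Pdgfrb on 1. Before normalization, the summed signal of the epithelial markers was 20464 and 36928 in control cells and 25543 and 37358 with NSD2. That of the fibroblast markers was 41063 and 54074 in control cells and 42081 and 58480 with NSD2. These sums are not corrected for the brightness of each array. The part of the epithelial signal in the values below was not tested.

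No mitotic gene was shown to differ between cells with NSD2 and cells with the control vector. With the processing used here, the measured means of the 22 members above background, each by its brightest probe, differed by at most 1.26-fold (Plk1). Over all probes of these members above background the widest difference was 1.28-fold, at another probe of Cdc20. None of them passed the test (limma, adjusted p = 0.9996 for each, Benjamini-Hochberg over all probes). Of all 7948 genes above background, 0.0503% passed. At an unadjusted p under 0.05 the members' count was also 0, against 3.72% of those genes. Their mean log2 intensity was higher with NSD2 in 14 and lower in 8, where 49.4% of all genes above background were higher. The median log2 fold change was 0.09 over the members and -0.0030 over all genes above background, and the members ranged from -0.33 (Plk1) to 0.32 (Ube2c). A group of 2 against 2 allows 3 splits, so an exact two-sided permutation test of 1 gene could not go below 0.333. Without the array NSD2 1 the median became -0.03 and 10 members were higher, and without NSD2 2 it was 0.11 with 18 higher. With median scaling of the arrays it was 0.15. The size of a fold also depends on the offset of 50 added to the signals. With an offset of 16 the log2 fold change of Ube2c was 0.39 and that of Plk1 -0.34. In the authors' processed values they were 0.34 and -0.36.

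How large a difference could have been missed is given by the intervals, as far as the spread between these arrays goes. That spread may be technical, so the intervals do not bound a difference between separately grown cultures. The 95% intervals of the 22 differences (limma, each gene alone) reached down to -0.79, for Cdca8, and up to 0.85, for Ube2c. In this fit all 22 left out a 2-fold difference in either direction, and the median half-width was 0.45. This did not hold in every setting. Of the genes named next, Cdc25b was above background on 2 arrays only. Ube2c had an uncorrected signal of 205 on control vector 1, near that array's background level of 184. With an offset of 16 in place of 50 the intervals of Ube2c (up to 1.20), Cdca8 and Cdc25b reached 2-fold, and with median scaling that of Ube2c did (up to 1.08). Without the array NSD2 1 the intervals of 4 members did (Cdc20, Cdca8, Plk1 and Ube2c), without control vector 2 those of 3 (Birc5, Cdca8 and Ube2c) and without control vector 1 that of Cdc25b.

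**Figure D2:**
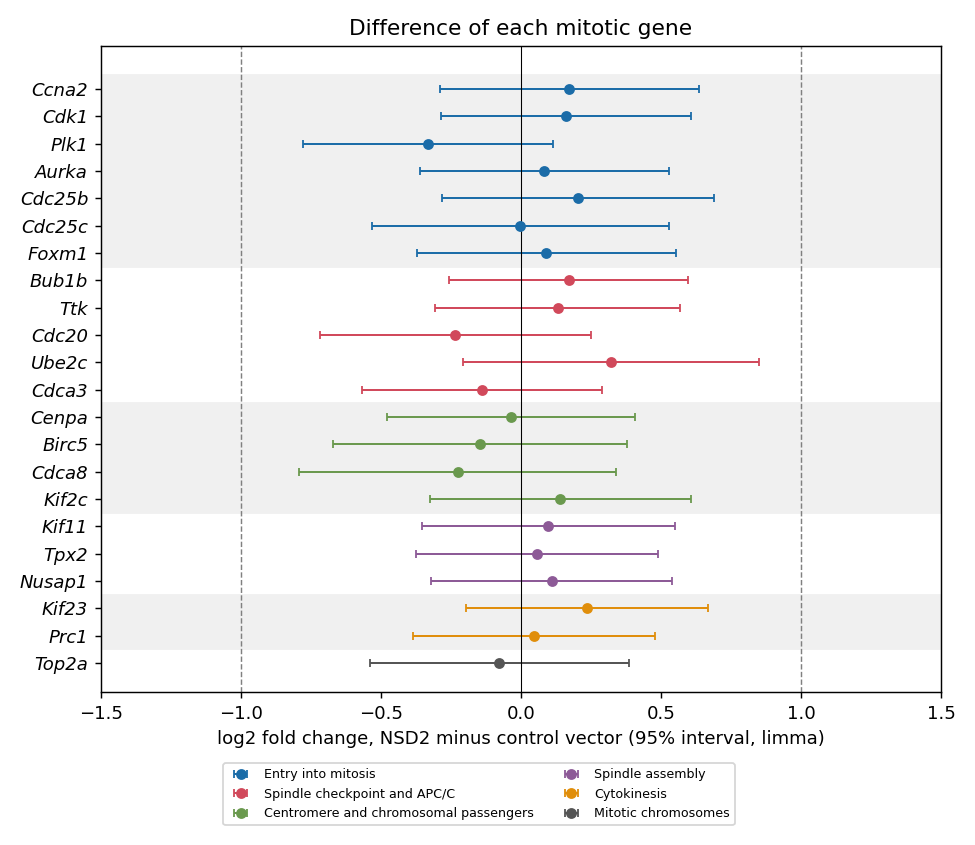
Log2 fold change (NSD2 minus control vector) of each of the 22 mitotic genes above background, with its 95% interval from limma, coloured by role; dashed lines mark 2-fold. Every interval includes 0 and lies within the dashed lines, from -0.79 at the lowest to 0.85 at the highest.

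**Figure D3:**
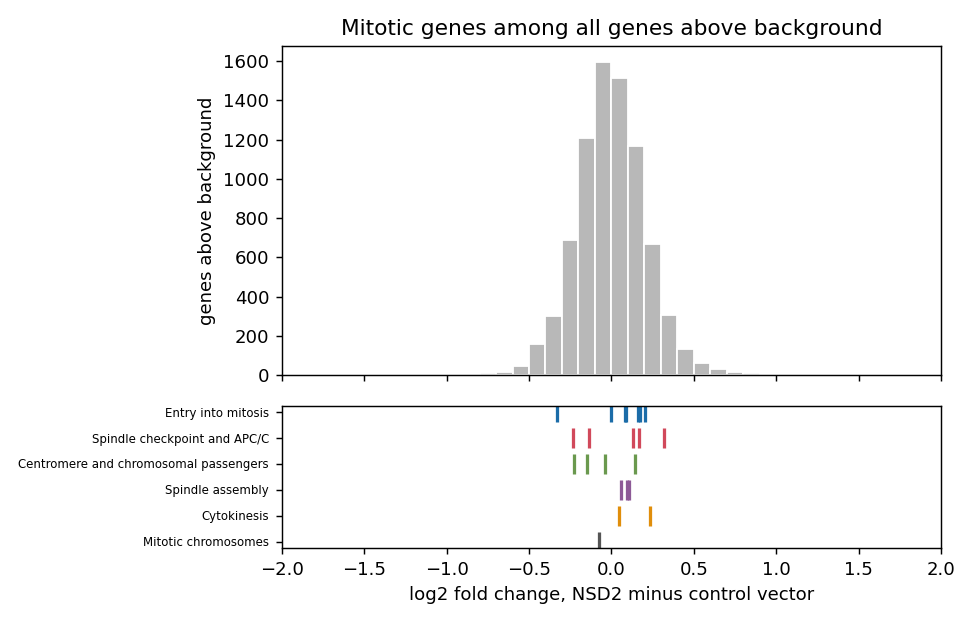
Upper panel: number of genes above background (7948 in all) by log2 fold change in steps of 0.1; lower panel: the 22 mitotic genes, 1 tick each, by role. The members lie between -0.33 and 0.32, inside the bulk of all genes.

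Regulators of entry into mitosis showed no shared direction, with 5 of 7 members higher. Cdk1, the kinase that drives entry, had log2 intensities of 11.31 and 11.12 in control cells and 11.54 and 11.22 with NSD2. The groups overlapped, and the difference was 0.16 ± 0.21 (log2, ± SE from limma here and below, n = 2 arrays per group). Its other 2 probes were below background. Ccna2, which encodes cyclin A2, stood at 7.45 and 7.62 in control cells and 7.48 and 7.94 with NSD2, a difference of 0.17 ± 0.22 that came mostly from the array NSD2 2. Plk1, the polo-like kinase that promotes entry, spindle assembly and cytokinesis, stood at 10.58 and 10.62 in control cells and 10.44 and 10.09 with NSD2. Both NSD2 arrays lay below both control arrays, by 0.14 and 0.53 for arrays of the same number, and the mean differed by -0.33 ± 0.21. This was the lowest value among the 22 members, and it remained below 0 in all 16 other settings, between -0.51 and -0.16. Those settings reuse the same arrays and are no separate support. As the groups did not overlap, leaving out any single array could not turn the sign.

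Foxm1 encodes the transcription factor that activates many genes of this set in G2. Its levels were 9.34 and 8.90 in control cells and 9.31 and 9.11 with NSD2, so the control arrays enclosed the NSD2 arrays. The difference was 0.09 ± 0.22, and 0.31 ± 0.24 at another probe above background on all arrays. Aurka, the centrosomal kinase that activates PLK1, differed by 0.08 ± 0.21. Of the CDC25 phosphatases, which remove inhibitory phosphates from CDK1, Cdc25b differed by 0.20 ± 0.23 and Cdc25c by -0.0018 ± 0.25, with -0.17 at another Cdc25c probe above background. The cyclin B2 gene Ccnb2 and the centrosomal kinase gene Nek2 were not measurable.

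Genes of the spindle checkpoint and of APC/C lay between -0.23 and 0.32, with 3 of 5 members higher. Bub1b encodes BUBR1, a part of the mitotic checkpoint complex that inhibits APC/C. It stood at 8.19 and 8.15 in control cells and 8.34 and 8.35 with NSD2. Both NSD2 arrays were higher, with SDs of 0.03 and 0.01 within the groups, yet the difference of 0.17 ± 0.20 was small against the spread that limma shares between probes. Ttk, which encodes the checkpoint kinase MPS1, differed by 0.13 ± 0.21, from 7.22 and 7.29 to 7.25 and 7.52.

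Cdc20 encodes the APC/C activator that the checkpoint holds in check. It stood at 11.90 and 11.63 in control cells and 11.81 and 11.26 with NSD2, a difference of -0.23 ± 0.23 in which only the array NSD2 2 lay below both controls. Its other 3 probes, all above background on 4 arrays, differed by -0.34, -0.36 and -0.29. At the last 2 of these both NSD2 arrays lay below both control arrays. Without the array NSD2 2 the probe used gave 0.04 and the other 3, in the same order, 0.14, -0.10 and -0.17. Probes of 1 gene read the same RNA and are not replicates. Ube2c, the ubiquitin-conjugating enzyme of APC/C, had the highest value of the 22. It stood at 7.27 and 8.10 in control cells and 7.94 and 8.07 with NSD2. Here control vector 1 was low and the other 3 arrays lay close together. The uncorrected signal on control vector 1 was 205, near that array's background level of 184. The difference of 0.32 ± 0.25 was -0.09 once control vector 1 was left out and 0.73 once control vector 2 was. Cdca3, whose product was found in Xenopus to promote destruction of the CDK1-inhibiting kinase WEE1, stood at 11.27 and 11.38 in control cells and 11.23 and 11.14 with NSD2. Both NSD2 arrays were lower, and the difference was -0.14 ± 0.20, with 0.01 at another probe. The checkpoint kinase gene Bub1 was not measurable.

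At the centromere, 1 of 4 members was higher. Cenpa, the histone H3 variant that marks centromeres, differed by -0.04 ± 0.21. Birc5 encodes survivin and Cdca8 borealin, both subunits of the chromosomal passenger complex that corrects faulty attachments. Birc5 stood at 11.30 and 10.69 in control cells and 11.12 and 10.57 with NSD2, a difference of -0.15 ± 0.25, and its other 2 probes differed by -0.16 and -0.15. Cdca8 stood at 10.35 and 9.48 in control cells and 9.93 and 9.45 with NSD2, and differed by -0.23 ± 0.27. In both genes the array numbered 1 was the higher one in each group, by 0.49 to 0.86, which is more than the groups differed. Without control vector 1 the value of Cdca8 turned to 0.21, and without NSD2 2 it was 0.02. Kif2c, a microtubule-depolymerising kinesin at centromeres, differed by 0.14 ± 0.22. The kinetochore kinesin gene Cenpe was not measurable.

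The 3 spindle assembly genes above background all had slightly higher means with NSD2, within overlapping groups. Kif11, the kinesin that pushes spindle poles apart, stood at 9.18 and 9.35 in control cells and 9.54 and 9.18 with NSD2 (0.10 ± 0.21). Tpx2, which activates Aurora A on the spindle, differed by 0.06 ± 0.20. Nusap1, which bundles spindle microtubules, differed by 0.11 ± 0.20, with 0.19 and 0.16 at probes above background on 3 and 2 arrays. Hmmr, the hyaluronan-mediated motility receptor gene whose product also acts on the spindle, was not measurable.

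Of the cytokinesis genes, Kif23 encodes the kinesin of the centralspindlin complex. It stood at 9.19 and 9.31 in control cells and 9.40 and 9.58 with NSD2, both NSD2 arrays being higher, and differed by 0.24 ± 0.20. Its value stayed above 0 in all 16 other settings, between 0.15 and 0.33, which again reuse the same arrays. Here too, leaving out any single array could not turn the sign. Prc1, which bundles the antiparallel microtubules of the central spindle, differed by 0.05 ± 0.20. The kinesin gene Kif20a and the RhoA exchange factor gene Ect2 were not measurable. Top2a, the topoisomerase that untangles sister chromatids, was the only measured member with the role of mitotic chromosomes, since Mki67 had no matching probe. It stood at 10.53 and 10.88 in control cells and 10.80 and 10.46 with NSD2. Its difference of -0.08 ± 0.22 had opposite signs for the numbers 1 (0.26) and 2 (-0.42).

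**Figure D4:**
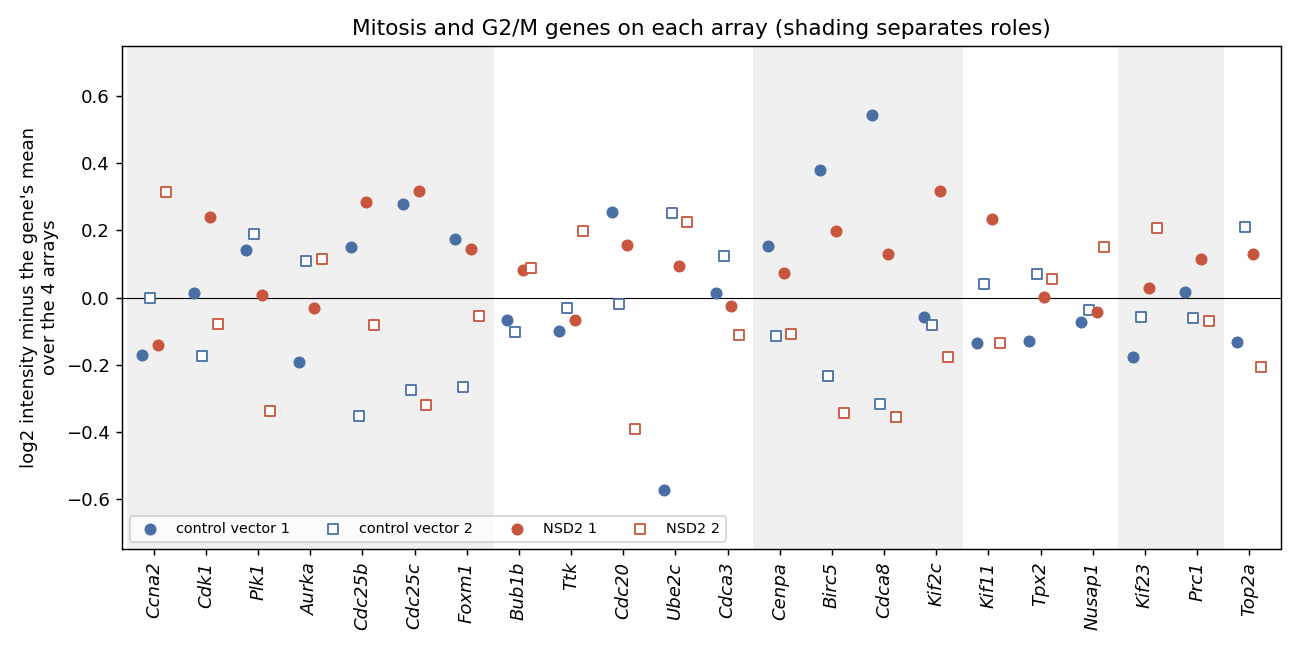
Log2 intensity of the 22 mitotic genes on each of the 4 arrays, minus the gene's mean over the arrays; circles are arrays numbered 1, squares arrays numbered 2, blue control vector and red NSD2, with shading between roles. Red and blue points are interleaved in most genes, and separate only in Plk1, Bub1b, Cdca3 and Kif23.

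In many members the arrays of 1 group differed by more than the groups did. The groups did not overlap in 4 of the 22 members, Bub1b and Kif23 being higher and Plk1 and Cdca3 lower, while 30.9% of all genes above background did not overlap (15.3% higher and 15.6% lower). In 12 of 22 members the gap between the 2 arrays was larger than the group difference within both groups, as in 48.2% of all genes above background. Array 1 minus array 2 ran from -0.82 (Ube2c) to 0.86 (Cdca8) in control cells and from -0.46 (Ccna2) to 0.64 (Cdc25c) with NSD2. The gap had the same sign in both groups in 17 of 22 members, against 65.2% of all genes above background. Cdk1, Cdc25b, Cdc25c, Foxm1, Cdc20, Cenpa, Birc5, Cdca8, Kif2c and Prc1 were higher on the array numbered 1 in both groups. Ccna2, Aurka, Ttk, Ube2c, Tpx2, Nusap1 and Kif23 were higher on that numbered 2. Brightness also differed between the numbers, as the 75th percentiles above show, and its part in these gaps was not tested. Taking arrays of the same number, NSD2 was higher in 15 of 22 members for number 1 and in 10 for number 2, and 13 had the same direction in both, where 57.3% of all genes above background did.

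**Figure D5:**
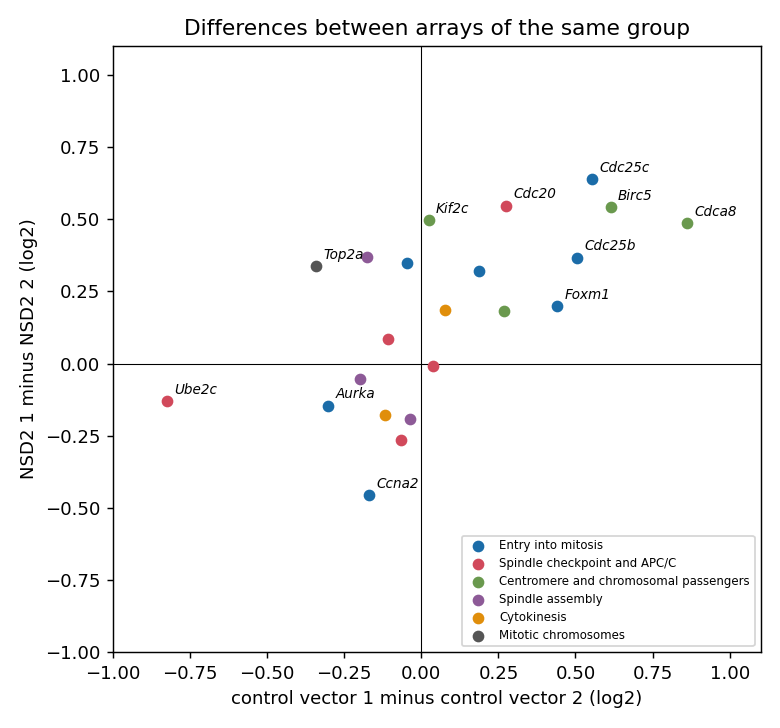
Difference between the arrays numbered 1 and 2 (log2) in control cells (x axis) and in NSD2 cells (y axis) for the 22 mitotic genes, coloured by role. Of the 22 points 17 lie where both differences have the same sign. Ube2c lies furthest left and Ccna2 lowest, Cdca8 furthest right and Cdc25c highest.

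Members with and without the promoter motifs were set side by side. Among the 18 members above background that have a window, the 15 with TTTGAA had a median log2 fold change of 0.08, with 9 higher. The 3 without it had a median of 0.11, with 2 higher.

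Other genes of the same processes were taken from 5 lists of 134 genes, of which 111 were measured and 90 were above background. None of the 90 passed the test over all probes (limma, smallest adjusted p = 0.9996), 1 had an unadjusted p under 0.05, 49 had higher and 41 lower means, and the median log2 fold change was 0.03. Further kinetochore and checkpoint genes were higher in 20 of 26, against 49.4% of all genes above background, with a median of 0.07. For this list the median difference was 0.11 between arrays numbered 1 and 0.01 between those numbered 2. It had 12 of 26 genes with the same direction in both, where 57.3% of all genes above background did. Among its genes above background on all 4 arrays the ends were Dsn1, a subunit of the outer kinetochore MIS12 complex (0.35 ± 0.21), and the spindly gene Spdl1 (-0.30 ± 0.22). Nsl1, another MIS12 complex gene, was above background on 2 arrays and lower still (-0.37 ± 0.20). Further APC/C genes were higher in 5 of 11, from Anapc7 (-0.23 ± 0.21) to Anapc15 (0.34 ± 0.23), both subunits of the ligase. Condensin, cohesin and separase genes were higher in 7 of 15, from the cohesin gene Smc1a (-0.19 ± 0.21) to the condensin gene Ncapd2 (0.18 ± 0.22).

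Further spindle, centrosome and cytokinesis genes were higher in 11 of 22. Spag5, which encodes the spindle and kinetochore protein astrin, was the gene with an unadjusted p under 0.05. It stood at 10.47 and 10.59 in control cells and 9.91 and 10.21 with NSD2, both NSD2 arrays being lower, and differed by -0.46 ± 0.21 (limma, adjusted p = 0.9996). At the other end was the microtubule polymerase gene Ckap5 (0.38 ± 0.22). Further genes of G2/M entry and of DREAM were higher in 6 of 16. E2f4, which encodes the repressive E2F of the DREAM complex, stood at 8.11 and 8.30 in control cells and 8.68 and 8.52 with NSD2. It differed by 0.40 ± 0.21 (limma, adjusted p = 0.9996), and Pimreg, a gene expressed in mitosis, stood at the other end with -0.30 ± 0.21.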

How the data were processed

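The deposited signal table holds, per the file headers, the average bead signal of each probe, an intensity on a linear scale, without detection p-values or control probes. The authors' processed table, likewise of linear intensity values, was made by a normalization not given in the sources used here and kept the order of probes within each array (Spearman 1.00 across probes). Signals were background-corrected by normexp with an offset of 50 and quantile-normalized (limma 3.58.1, R 4.3.3), since neqc, the first choice, needs detection p-values. Groups were compared with lmFit and eBayes over all 25697 probes, two-sided, with Benjamini-Hochberg adjustment and a threshold of 0.05. The fit was tested on simulated data. Background was the upper 2.5% point of the lower side of each array's signal mirrored about its mode (levels of 184, 218, 177 and 177), and a gene counted as above background on at least 2 arrays. The number of arrays limits precision.

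All members are named; of the other lists, any gene past the threshold and, per list, the largest difference in each direction among genes above background on all arrays. Probe names came from the platform annotation: 23978 probes have 1 symbol, 0 have several and 1719 none. Promoter sequences came from a RefSeq table (GRCm38.p6), and a search of RefSeq's older symbols added 0 matches. Members and lists were chosen with earlier results of these data known. Alternatives changed the background correction, offset, normalization, table, dim-probe filter, moderation, probe choice, replicate block and arrays.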

Additional observations from a re-analysis of the deposited data

How the results depend on the processing

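The count of 0 mitotic genes past the threshold was the same in all 16 alternatives, as was that of the other mitosis genes. The smallest adjusted p among members was 0.677, for the below-background Ccnb2, in the fit with the replicate number as a block, which called 37 genes in all against 4. Same-numbered arrays deviated together (r = 0.24 over all probes, 0.52 over those above background on all 4 arrays and 0.62 over the 22 members), but with 2 pairs and no label that ties them the numbers do not establish a pairing. Because each number holds 1 array of each group, the replicate block could not change the median over members, which stayed 0.09. It was 0.15 (0.1479) with median scaling, where the median of all genes above background was 0.04, and 0.07 to 0.15 over the 12 alternatives that kept all arrays. Leaving out 1 array gave -0.03 (-0.0275) to 0.11, and 10 to 18 members with higher means. The brightest probe was chosen anew among the arrays kept. Without control vector 2 the value of Foxm1 (0.04) therefore came from its other probe. That of Cdc25c without NSD2 1 (-0.28) likewise came from another probe. In these fits the spread comes from the other group's arrays and is shared between probes. Without either control array every member had the same SE, so the spread of a single gene did not enter. The count with higher means was 13 to 15 otherwise. Of the 22 members above background, 5 kept their sign in every alternative: Cdk1, Plk1, Bub1b, Nusap1 and Kif23. This is no separate support, since the alternatives reuse the same arrays. The moderation, the replicate block and the dim-probe filters left the fold of each of these probes as it was. In Plk1, Bub1b and Kif23, whose groups did not overlap, leaving out 1 array could not turn the sign. Cdk1 fell to 0.0011 without NSD2 1. Neqc was not run because it needs detection p-values. Signal over background limits the 7 dim members, for which no difference is given.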
